A study of Mus musculus with 10 samples.

Results

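Cytokine receptors and the kinases, transcription factors and feedback inhibitors that act behind them were described in splenic plasma cells of the mouse, as 36 genes out of the 47719 gene rows of the deposited files. The 36 genes were taken by symbol, through the Ensembl identifier and GENCODE release M21 on GRCm38, and all 36 were found. They comprise 21 receptor chains, 4 Janus kinases (JAK), 5 signal transducers and activators of transcription (STAT), 4 members of the suppressor of cytokine signalling (SOCS) family and 2 PIM kinases. Plasma cells are the antibody-secreting end stage of the B cell lineage, and those compared here secrete IgM or the switched isotype IgG1. Per the labels, the sorted cells came from donor B cells that carried S1PR2-CreERT2, a tamoxifen-activated Cre recombinase expressed in germinal centre B cells, the Ai14 allele, which switches on the red protein tdTomato after recombination, and B1-8germ, an unmutated heavy chain that binds the hapten NP. These congenically marked donor cells were placed in wild-type recipients. On day 0 the recipients received NP-CGG, the hapten on a carrier protein, in alum, and they were given tamoxifen on day 5 and day 6. On day 10 donor tdTomato-positive plasma cells were sorted from the spleen as IgM or as IgG1 cells, and each isotype gave 5 RNA-seq libraries. Both groups therefore carry the same alleles and had the same treatment, only cells with active Cre while tamoxifen was present could be marked, and all started from 1 heavy chain. Animal ages, sexes and the host strain are not given in the labels, nor is it said whether each library is from an animal of its own. The p-values below measure the spread between these libraries, which may in part be technical.

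Most receptors in the list have no kinase of their own. Ligand binding brings receptor chains together, the JAK proteins bound to their tails phosphorylate the receptor and one another, and STAT proteins dock, are phosphorylated and move to the nucleus as dimers. SOCS proteins and CIS, the product of Cish, are switched on by STATs and shut the receptor down, and PIM kinases are STAT targets that act on growth and survival. Some receptors in the list work otherwise: TGF-beta receptors are serine and threonine kinases that signal through SMAD proteins, and the IL-17 receptor signals through the adaptor Act1. In B cells, IL-4 and IL-21 act during the germinal centre response, TGF-beta and interferon-gamma steer the choice of isotype, and IL-6 and IL-5 are known as plasma cell factors.

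Promoter sequence is shown for the 4 genes that best illustrate the STAT-type element in this list and its absence. RefSeq windows of 300 bases on GRCm38.p6, from 250 before to 50 after each annotated start, were held for 29 of the 36 genes, as 34 windows. Il2rb, Il27ra, Csf2rb, Il10ra, Il10rb, Il17ra and Socs2 had no entry. The letters searched were TTCNNNGAA, the palindrome that STAT dimers other than STAT6 favour, which reads the same on both strands. It stood in 2722 of all 32817 windows, which is 8.29%, and in 5 of the 34 windows here, those of Cish, Ifnar1, Ifnar2, Il7r and Socs3. Cish held 2 copies without overlap, TTCCTGGAA at position 0 and TTCTTGGAA at position 11 from the start, and 150 of all windows, or 0.457%, held 2 or more. The form with a 4-base spacer favoured by STAT6, TTC and GAA with 4 bases between them, stood in 6.94% of all windows and in those of Ifngr2 and Il5ra. Below, capitals mark the matched letters, sequences run 5′ to 3′ on the strand of the gene, and the first is the stretch around the start of Cish while the others are the 250 bases before the start. Socs3 and Ifnar2 hold 1 copy each, at -154 and -214, and Il13ra1, the gene with the largest difference between the isotypes, holds none. A match describes letters in a window and nothing about binding.
Cish, chr9:107296655-107296684, plus strand: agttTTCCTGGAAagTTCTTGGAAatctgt
Socs3, chr11:117969367-117969616, minus strand: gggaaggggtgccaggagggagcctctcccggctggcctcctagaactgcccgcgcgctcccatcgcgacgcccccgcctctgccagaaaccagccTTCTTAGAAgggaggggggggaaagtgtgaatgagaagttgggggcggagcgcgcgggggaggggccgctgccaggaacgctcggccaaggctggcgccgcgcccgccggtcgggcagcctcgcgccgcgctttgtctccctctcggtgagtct
Ifnar2, chr16:91372533-91372782, plus strand: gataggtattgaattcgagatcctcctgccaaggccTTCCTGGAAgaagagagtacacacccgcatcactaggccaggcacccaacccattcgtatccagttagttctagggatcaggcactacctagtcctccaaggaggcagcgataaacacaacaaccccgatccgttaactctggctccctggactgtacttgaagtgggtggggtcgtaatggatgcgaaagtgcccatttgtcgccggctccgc
Il13ra1, chrX:36111858-36112107, plus strand: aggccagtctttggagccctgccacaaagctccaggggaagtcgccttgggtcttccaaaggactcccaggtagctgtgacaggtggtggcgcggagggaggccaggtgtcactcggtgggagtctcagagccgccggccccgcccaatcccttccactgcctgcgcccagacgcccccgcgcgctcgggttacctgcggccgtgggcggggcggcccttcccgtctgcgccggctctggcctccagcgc

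The unit of every level is FPKM as deposited, which counts fragments relative to the length of the transcript and the total of the library. Fitted depths were 27520000 to 32040000 fragments for IgM and 26800000 to 39420000 for IgG1, and 15121 to 15800 genes were above 0 in an IgM library against 13286 to 13961 in an IgG1 library. At the shallowest depth, 1 FPKM stood for 38.4 fragments of Il2rg and for 226.2 of Il6st, the shortest and longest of the 36 by transcript. The heavy chains followed the labels: Ighm ran from 81237 to 90279 FPKM in IgM and from 1110 to 1306 in IgG1 libraries, and Ighg1 from 9465 to 19243 against 86880 to 107616. The summed FPKM of 8 plasma cell markers, led by Jchain, was 47339 to 52649 in IgM and 30210 to 33876 in IgG1 libraries. Jchain made up most of this sum, at means of 38835 and 21143 FPKM. Of the 8 markers, 7 had the lower mean in IgG1 libraries and 1, Xbp1, the higher, at 2928 against 3194 FPKM. The 7 ranged from Sdc1, at means of 284 and 258 FPKM, to Tnfrsf17, at 138 and 48.3. Xbp1, Sdc1 and Tnfrsf17 were named after their values were seen. Fewer cells that express a gene and less RNA per cell cannot be told apart in these bulk libraries.

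The 36 genes differed widely in level. Il2rg, the common gamma chain, stood first with a mean of 236 FPKM in IgM and 179 in IgG1 libraries, followed by Pim2 with 91.7 and 99.2 and by Ifnar2 with 55.8 and 48.2. Behind these 3 came Stat3, Il17ra, Il10rb, Socs2 and Jak1, with means over all libraries that lay close to one another and libraries that overlapped. At the other end, Il7r, the IL-7 receptor of B cell progenitors, was listed at 0 in 9 of 10 libraries. Il2ra, Il7r, Il27ra, Il10ra, Socs3 and Cish had means under 1 FPKM over all libraries and were not tested, which left 30.

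**Figure D1:**
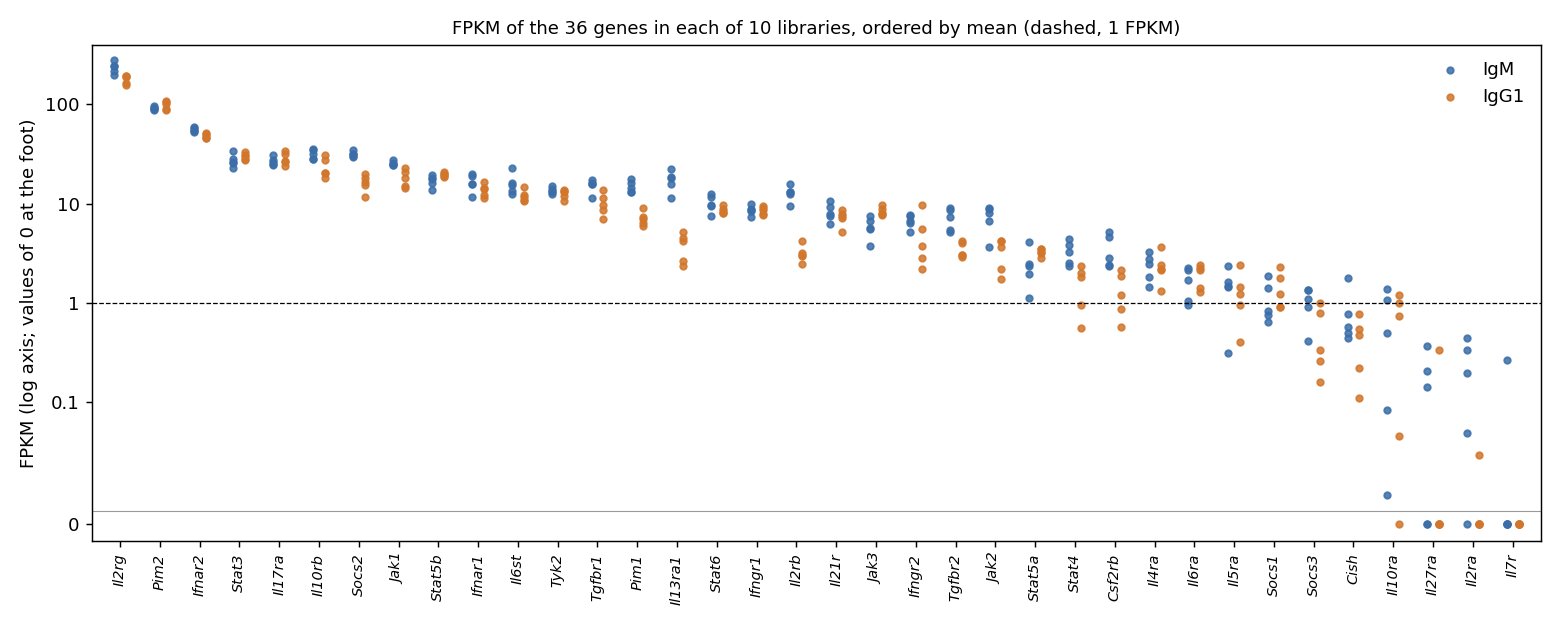
FPKM of the 36 genes in each of the 10 libraries on a log axis, ordered by mean over all libraries, with IgM in blue and IgG1 in orange, values of 0 at the foot and a dashed line at 1 FPKM. Levels run from means of 236 and 179 FPKM for Il2rg down to Il7r, which is at 0 in 9 of 10 libraries, and the 6 genes on the right have means below the line.

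The question put to these genes was which of them differ between IgM and IgG1 plasma cells sorted from the same kind of tdTomato-marked donor cells. The test was limma on log2(FPKM + 1), with Benjamini-Hochberg adjustment over the 9900 genes whose mean over all libraries was at least 1 FPKM, and "passed" means an adjusted p under 0.05. Differences below are IgG1 minus IgM on that log2 scale with standard errors (SE), n = 5 per group, and folds are ratios of mean FPKM. Of the 30 tested genes 13 were lower and 1 was higher in IgG1 cells, and 16 did not pass. Over all genes tested, 20.2% were lower and 18.1% higher, so the 13 make up 43.3% against 20.2% and the 1 makes up 3.33% against 18.1%. The genes were chosen with earlier results of these data known, so these shares are described only and were not tested against each other. The median difference was -0.22 for the 30 genes and -0.05 for all genes. In 10 of the 30 the libraries of the isotypes did not overlap, against 26.3% of all genes. Il13ra1, Il2rb, Jak2, Pim1, Csf2rb, Socs2, Tgfbr2, Stat4, Tgfbr1, Jak1, Il10rb, Il2rg and Ifnar2 were the lower genes, and Jak3 was the higher one. Of these 14, 9 passed under every one of the 21 alternative settings in which they were tested (20 for Csf2rb, which is under the minimum of 5 FPKM in the other), and Ifnar2, Jak3, Stat4, Il10rb and Tgfbr1 did not. Quantile normalization moved the median of all genes from -0.05 to 0.06 and the share of higher genes among all calls from 47.2% to 59.1%, and with it 12 of the 30 were lower and 2 higher.

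**Figure D2:**
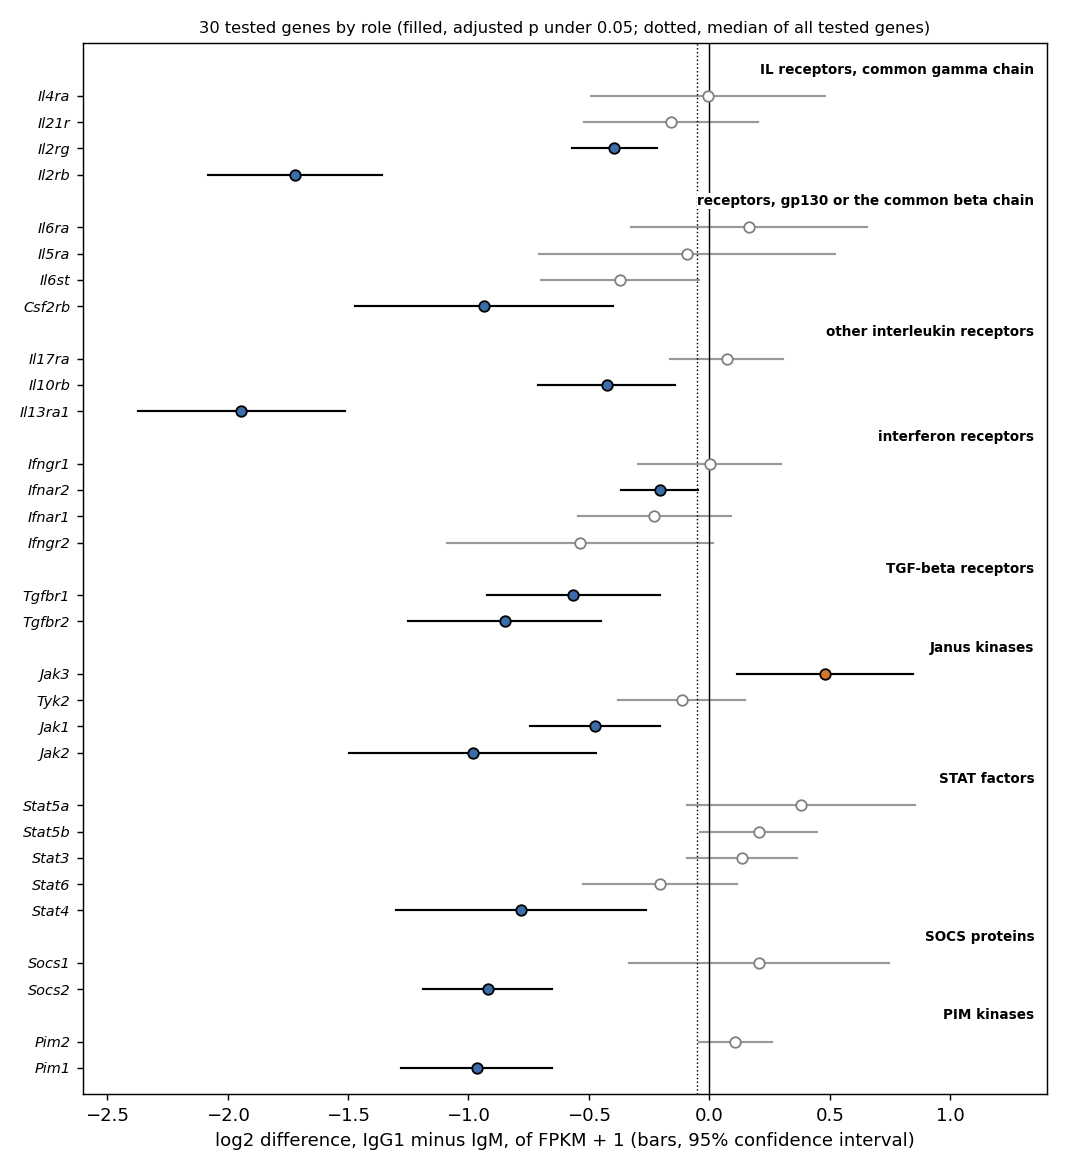
Log2 difference in FPKM + 1, IgG1 minus IgM, of the 30 tested genes grouped by role, with 95% confidence intervals; filled points passed at an adjusted p under 0.05 (blue lower, orange higher) and the dotted line is the median of all tested genes. Il13ra1 at -1.94 and Il2rb at -1.72 lie farthest from 0, and Jak3 at 0.48 is the filled point on the right.

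Among receptors that use the common gamma chain, the IL-2 and IL-15 receptor beta chain Il2rb (chr15:78479256-78495271) was 4.02 times as high in IgM as in IgG1 cells. The IgM libraries held 9.50, 12.5, 13.2, 15.8 and 13.1 FPKM and the IgG1 libraries 2.48, 3.04, 4.22, 3.18 and 2.99. Every IgM library lay above every IgG1 library, and the difference was -1.72 (SE 0.17, adjusted p = 3.88e-07). The gamma chain itself, Il2rg (chrX:101264378-101268255), was 1.32 times as high in IgM cells, with 219, 199.9, 279, 241 and 241 FPKM against 165, 156, 188, 191 and 195. Its groups did not overlap but came close, and the difference was -0.39 (SE 0.08, adjusted p = 0.00125). Within a library, where scaling cancels, the ratio of Il2rb to Il2rg ran from 0.0435 to 0.0655 in IgM and from 0.0151 to 0.0225 in IgG1 libraries, so the beta chain was the lower by more. This ratio, like the others below, was formed after the values were seen and has no test.

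Il4ra and Il21r, the chains that bind the germinal centre cytokines IL-4 and IL-21, did not pass, while the gamma chain Il2rg used with them did, as given above. Il4ra, the IL-4 receptor alpha chain, held 1.45 to 3.23 FPKM in IgM and 1.32 to 3.65 in IgG1 libraries (difference -0.01, 95% interval -0.49 to 0.48, adjusted p = 0.99). Il21r held 6.30 to 10.5 against 5.18 to 8.65 FPKM (-0.16, interval -0.52 to 0.20, adjusted p = 0.488). Both intervals include 0, and both genes lie side by side on chromosome 7. Il2ra, the IL-2 receptor alpha chain CD25, was above 0 in 4 of 5 IgM libraries, at 0.0493 to 0.440 FPKM, and in 1 of 5 IgG1 libraries, at 0.0295. Both Il2ra and Il7r lie under the expression minimum, and without it neither passed (adjusted p = 0.16 and 0.495).

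T and NK cells also carry Il2rb. The markers of these cells were low, the T cell markers went both ways, and the NK marker sum had a median of 0 in both groups. The median T cell marker sum was 6.75 FPKM in IgM and 4.00 in IgG1 libraries. The summed FPKM of 10 T cell markers was 4.24 to 9.58 in IgM and 2.61 to 4.54 in IgG1 libraries, which overlap, with Lck highest, at means of 2.13 and 1.32. Of these 10 only 3 were tested, 1 lower (Trac) and 1 higher (Cd4) in IgG1 cells, and Cd3e, part of the T cell receptor complex, reached at most 0.0887 FPKM. Trac, the T cell receptor alpha constant gene, averaged 2.37 against 0.201 FPKM, and Cd4 0.280 against 1.87, both named after their values were seen. Of 5 NK markers Ncr1, Nkg7 and Gzma were at 0 in all 10 libraries, and the sum ran from 0 to 1.26 in IgM and was 0 in every IgG1 library. The IgM level of Il2rb was 12.8 ± 2.25 FPKM (SD, n = 5), and the part of T and NK cells in its difference was not tested.

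In the family that signals through gp130 or the common beta chain, 1 of 4 tested genes passed. It was lower, and 25% compares with 20.2% of all genes tested. Csf2rb (chr15:78325752-78353847), the beta chain shared by the receptors for IL-3, IL-5 and GM-CSF, held 2.33, 5.13, 2.42, 2.85 and 4.58 FPKM in IgM and 0.870, 1.87, 0.574, 2.14 and 1.22 in IgG1 libraries. The lowest IgM library lay just above the highest IgG1 library, the level was 2.60 times as high in IgM cells, and the difference was -0.93 (SE 0.25, adjusted p = 0.00728). Its near-identical copy Csf2rb2 stayed at or below 0.129 FPKM in every library, and how reads were divided between the copies was not tested. Its ligand-specific partner Il5ra, the IL-5 receptor alpha chain, was at 0.311 to 2.38 FPKM in IgM and 0.404 to 2.39 in IgG1 libraries (-0.09, interval -0.71 to 0.52, adjusted p = 0.829).

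Il6st, the gp130 chain of the IL-6 receptor, held 15.5, 16.2, 12.5, 13.6 and 22.9 FPKM in IgM and 10.7, 12.3, 14.8, 10.9 and 11.5 in IgG1 libraries. The groups overlapped at IgG1 replicate 3, and the difference of -0.37 (SE 0.16) did not pass (adjusted p = 0.0699). Without IgM replicate 3 or without IgG1 replicate 3 it did (adjusted p = 0.0368 and 0.0421), and over its 21 alternatives adjusted p ran from 0.0368 to 0.315. Il6ra, the IL-6 binding chain, was lower than Il6st throughout, at 0.951 to 2.27 against 1.28 to 2.43 FPKM (0.16, interval -0.33 to 0.66, adjusted p = 0.607). Il27ra, the IL-27 receptor chain that pairs with gp130, was above 0 in 3 IgM libraries and 1 IgG1 library and never over 0.365 FPKM. It overlaps Palm3 on the other strand, at means of 1.22 and 1.82 FPKM, and no strand setting is given in the sources used here.

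Among the remaining interleukin receptors, Il13ra1 (chrX:36112110-36171259), which binds IL-13 and forms a second kind of IL-4 receptor together with Il4ra, showed the largest difference of the 30 genes. Its levels were 18.3, 18.6, 11.4, 15.6 and 22.3 FPKM in IgM and 4.16, 2.38, 5.22, 2.62 and 4.51 in IgG1 libraries. The lowest IgM library was above 2 times the highest IgG1 library, the level was 4.56 times as high in IgM cells, and the difference was -1.94 (SE 0.20, adjusted p = 7.48e-07). Its partner Il4ra, given above, differed by -0.01.

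Il10rb (chr16:91406164-91425834), a chain shared by the receptors for IL-10, IL-22 and the lambda interferons, held 28.0, 34.7, 31.4, 35.2 and 27.9 FPKM in IgM against 18.2, 27.5, 20.5, 20.6 and 30.6 in IgG1 libraries. IgG1 replicate 5 lay within the IgM range and the other 4 below it, and the difference was -0.43 (SE 0.14, adjusted p = 0.019). The call was lost without the expression minimum, without IgM replicate 4 and without IgG1 replicate 1, and over 21 alternatives adjusted p ran from 0.00426 to 0.112. The ligand-binding chain Il10ra spread from 0.0116 to 1.37 FPKM within the IgM libraries and from 0 to 1.21 within the IgG1 libraries, below the minimum. Il17ra, the IL-17 receptor chain, held 24.7 to 30.7 against 23.9 to 33.9 FPKM (0.07, interval -0.16 to 0.31, adjusted p = 0.636).

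The 4 interferon receptor chains were all expressed, and 1 of them passed, as lower, 25% against 20.2% of all genes tested. Ifnar2 (chr16:91372783-91405589), the high-affinity chain for the type I interferons, held 59.6, 54.1, 54.9, 57.8 and 52.5 FPKM in IgM and 45.5, 45.8, 48.1, 51.5 and 50.2 in IgG1 libraries. The groups did not overlap, by a margin of about 1 FPKM, and the difference was small, -0.21 (SE 0.08, adjusted p = 0.0399). It missed the threshold in 10 of 21 alternatives, among them removal of IgM replicate 1, 2, 3 or 4 or of IgG1 replicate 1, 2 or 3, and adjusted p ran from 0.00829 to 0.0954. Its partner Ifnar1 held 11.7 to 20.03 against 11.5 to 16.7 FPKM (-0.23, interval -0.55 to 0.09, adjusted p = 0.249).

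For the interferon-gamma receptor, the ligand-binding chain Ifngr1 had the same mean in both groups, 8.57 ± 0.924 and 8.57 ± 0.787 FPKM (SD, n = 5), with libraries at 7.26 to 9.84 and 7.75 to 9.50 FPKM, and the interval of the difference ran from -0.30 to 0.30. The signalling chain Ifngr2 held 6.66, 7.77, 5.24, 6.45 and 7.54 FPKM in IgM and 2.86, 3.78, 9.63, 2.2 and 5.61 in IgG1 libraries. IgG1 replicate 3 was the highest of all 10, and the difference was -0.54 (SE 0.26, adjusted p = 0.117). Without that library it was -0.79 (adjusted p = 0.00979, from a range of 0.00979 to 0.367 over 21 alternatives). Ifnar2, Il10rb, Ifnar1 and Ifngr2 follow one another on the plus strand of chromosome 16, and their differences were -0.21, -0.43, -0.23 and -0.54. The annotated gene Gm21970 covers parts of both Ifnar2 and Il10rb and was listed at 0 in both groups.

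Both TGF-beta receptor chains were lower in IgG1 cells. Tgfbr2 (chr9:116084293-116175360), which binds the ligand, held 5.21, 5.37, 7.32, 8.95 and 8.55 FPKM in IgM and 4.02, 2.87, 4.21, 3.06 and 3.02 in IgG1 libraries. The groups did not overlap, IgM cells were at 2.06 times the IgG1 level, and the difference was -0.85 (SE 0.19, adjusted p = 0.00177). Tgfbr1 (chr4:47353222-47414931), the signalling chain, held 17.3, 15.6, 16, 15.9 and 11.3 FPKM against 11.5, 6.95, 13.8, 9.67 and 8.66. IgM replicate 5 fell within the IgG1 range, and the difference was -0.56 (SE 0.17, adjusted p = 0.0138). Tgfbr1 did not pass without the expression minimum or once length and GC trends were taken out, where the difference was -0.31, and adjusted p over 21 alternatives ran from 0.00432 to 0.147.

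In the SMAD branch behind these receptors, 8 of 12 genes were tested, 1 was lower, 1 higher and 6 did not pass. That is 12.5% lower and 12.5% higher, both under the 20.2% and 18.1% of all genes tested. Skil, which encodes SnoN, a repressor of SMAD complexes and itself a TGF-beta target, was at 29.1 ± 2.15 FPKM in IgM and 15.5 ± 1.29 in IgG1 cells (SD, n = 5), a difference of -0.87 (adjusted p = 4.14e-06). Smad3, a receptor-activated SMAD, was at 4.09 ± 0.336 against 6.47 ± 1.95 FPKM (SD, n = 5), a difference of 0.52 with adjusted p = 0.0389 that missed the threshold in 8 alternatives. Those included removal of IgM replicate 1, 3, 4 or 5 or of IgG1 replicate 2 or 3. Tgif1, a SMAD corepressor, differed by -0.48 and did not pass (adjusted p = 0.0606), but did with a replicate block, without IgG1 replicate 1 and without IgM replicate 5 (-0.57 in the last).

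The Janus kinases split. Jak1 (chr4:101152367-101265282), which serves gamma-chain, gp130 and interferon receptors, held 25.8, 24.5, 24.9, 24.6 and 27.7 FPKM in IgM and 18, 20.9, 23.1, 15.2 and 14.5 in IgG1 libraries. The groups did not overlap, and the difference was -0.47 (SE 0.13, adjusted p = 0.00691). Jak2 (chr19:29251828-29313080), the kinase of the common beta chain and of hormone-type receptors, held 9.07, 6.72, 8.08, 3.69 and 8.82 FPKM against 3.62, 4.17, 2.21, 1.72 and 4.18. IgM replicate 4 lay within the IgG1 range while the other 4 lay above it, and the difference was -0.98 (SE 0.24, adjusted p = 0.00386).

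Jak3 (chr8:71676296-71690575), which binds the common gamma chain only, was the single gene of the 36 that passed in the other direction. Its levels were 5.52, 3.75, 5.69, 7.53 and 6.75 FPKM in IgM and 7.79, 7.67, 8.77, 8.01 and 9.74 in IgG1 libraries. The groups did not overlap, by a narrow margin, IgG1 cells were at 1.44 times the IgM level, and the difference was 0.48 (SE 0.17, adjusted p = 0.0367). The call was lost in 8 of 21 alternatives, among them removal of IgM replicate 1, 2 or 3 or of IgG1 replicate 3, 4 or 5, and adjusted p ran from 0.00717 to 0.225. The ratio of Jak1 to Jak3 within a library ran from 3.27 to 6.53 in IgM and from 1.49 to 2.73 in IgG1 libraries, without overlap. Tyk2, the fourth kinase, held 12.4 to 15 against 10.6 to 13.8 FPKM (-0.12, interval -0.38 to 0.15, adjusted p = 0.491).

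Of the 5 STAT genes 1 passed, as lower, which is 20% against 20.2% of all genes tested. Stat4 (chr1:51987148-52107189), best known downstream of IL-12 in T and NK cells, held 3.25, 2.51, 3.85, 4.40 and 2.33 FPKM in IgM and 2.01, 1.83, 0.559, 0.960 and 2.34 in IgG1 libraries. IgM replicate 5 and IgG1 replicate 5 were level, so the groups met at the edge, and the difference was -0.78 (SE 0.25, adjusted p = 0.0179). The call was lost without the expression minimum, with quantile normalization, without IgM replicate 4 and without IgG1 replicate 3, and adjusted p ran from 0.0114 to 0.0800. The T cell marker sum given above had the lower median in IgG1 libraries, with overlap and with Cd4 higher, and its part in Stat4 was not tested.

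The other 4 STAT genes did not pass. Stat3, the main STAT of IL-6, IL-10 and IL-21, stood highest at 23.1 to 34 FPKM in IgM and 27.4 to 32.9 in IgG1 libraries (0.14, interval -0.09 to 0.37, adjusted p = 0.349). Stat5b, of the IL-2 family and growth hormone receptors, held 13.9 to 19.2 against 18.5 to 21 FPKM (0.21, interval -0.04 to 0.45, adjusted p = 0.174). Stat5a, its close relative, was at 1.118 to 4.12 against 2.84 to 3.51 FPKM (0.38, interval -0.09 to 0.85, adjusted p = 0.194), and passed with quantile normalization (0.60, adjusted p = 0.0453, from a range of 0.0453 to 0.492). These 3 genes are neighbours on chromosome 11. Stat3 and Stat5a overlap on opposite strands, so their reads there cannot be told apart without strand. Stat6, the STAT of IL-4 and IL-13, held 7.53 to 12.6 against 8.05 to 9.69 FPKM (-0.20, interval -0.53 to 0.12, adjusted p = 0.31). It overlaps Nab2 on the other strand, whose means were 4.88 and 0.883 FPKM.

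Among the feedback inhibitors, Socs2 (chr10:95385362-95417180), a STAT5 target that restrains growth hormone and related receptors, held 31.5, 31.3, 34.4, 30.1 and 29.5 FPKM in IgM and 19.98, 18, 15.4, 16.6 and 11.7 in IgG1 libraries. The groups lay far apart, the IgM level was 1.92 times the IgG1 level, and the difference was -0.92 (SE 0.13, adjusted p = 1.68e-05). Socs2 was also the most abundant of the 4, since the other 3 stayed under 2.4 FPKM in every library. Socs1, the brake on interferon and gamma-chain signalling, held 0.650 to 1.87 against 0.906 to 2.32 FPKM (0.21, interval -0.33 to 0.75, adjusted p = 0.55). Socs3, the brake on gp130, held 0.411 to 1.36 FPKM in IgM and 0.160 to 1.01 in IgG1 libraries. Cish, a STAT5 target, held 0.447 to 1.79 against 0.110 to 0.767 FPKM. Both lie below the expression minimum, their groups overlapped, and neither passed without it (adjusted p = 0.297 and 0.456). Socs3 and Cish hold the STAT-type letters shown above and Socs2 had no promoter entry.

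Of the PIM kinases, Pim1 passed as lower and Pim2 did not pass. Pim1 (chr17:29490753-29496112) held 16.2, 17.7, 13, 13 and 14.4 FPKM in IgM and 6.96, 7.34, 9.15, 5.96 and 6.34 in IgG1 libraries. The groups did not overlap, the IgM level was 2.08 times the IgG1 level, and the difference was -0.96 (SE 0.15, adjusted p = 5.43e-05). The antisense gene Gm26885 overlaps Pim1, at means of 1.36 and 0.402 FPKM, well under Pim1 itself. Pim2, the most abundant kinase of the list, held 88.2 to 96.9 FPKM in IgM and 88.4 to 109 in IgG1 libraries, and did not pass (0.11, interval -0.04 to 0.26, adjusted p = 0.248). The ratio of Pim1 to Pim2 within a library ran from 0.134 to 0.201 in IgM and from 0.0592 to 0.0838 in IgG1 libraries.

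**Figure D3:**
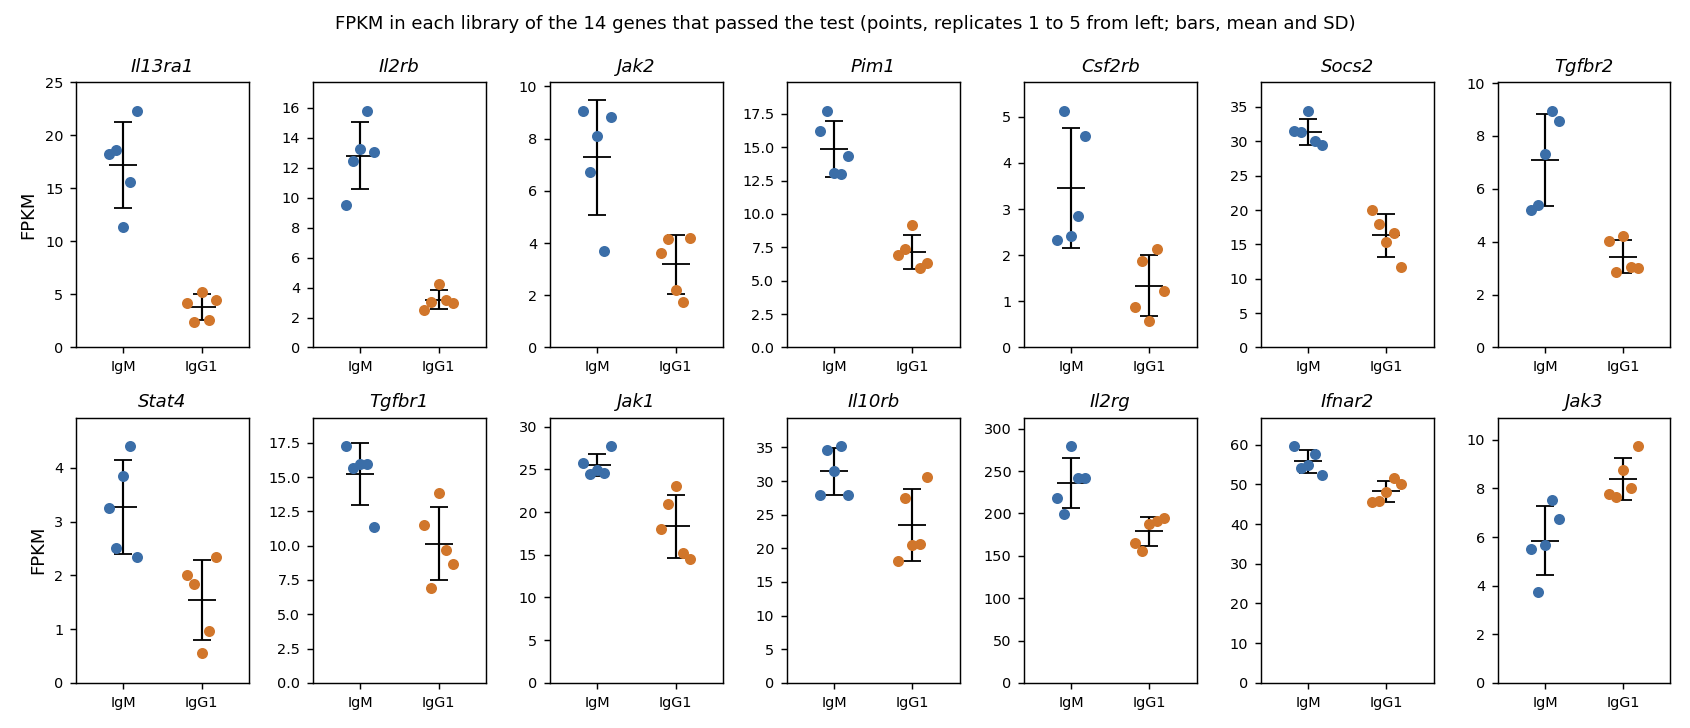
FPKM in each library of the 14 genes that passed, with points for replicates 1 to 5 of IgM (blue) and IgG1 (orange) and bars for the mean and SD, each panel on its own linear axis from 0. In 10 panels the groups do not overlap, and in those of Jak2, Stat4, Tgfbr1 and Il10rb they do.

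Beyond the 36, 126 further genes of the same pathways were examined as 5 lists. Of these 55 were tested, 15 were lower, 7 higher and 33 did not pass, with a median difference of -0.27. That is 27.3% lower and 12.7% higher, against 20.2% and 18.1% of all genes tested. The 5 lists were also chosen with earlier results of these data known, so their shares here and below are described only. Of 42 other cytokine receptors 35 lay below the minimum, and 2 of the 7 tested were lower, 28.6% against 20.2% of all genes. Il15ra, the alpha chain that presents IL-15 to Il2rb and Il2rg, was at 4.21 ± 1.58 FPKM in IgM and 1.52 ± 0.964 in IgG1 cells (SD, n = 5), a difference of -1.08 (adjusted p = 0.00861) that did not pass without the minimum. Prlr, the prolactin receptor, which works through Jak2 and STAT5, was at 12.4 ± 4.26 against 6.61 ± 1.34 FPKM (SD, n = 5), a difference of -0.79 (adjusted p = 0.00436) that did not pass once length and GC trends were removed. Il1r2, the IL-1 decoy receptor, was at 2.44 against 1.24 FPKM and did not pass (-0.56, adjusted p = 0.115), but did without IgM replicate 5 (-0.79).

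Of 24 other STATs, brakes and adaptors 22 were tested, and 6 were lower, 27.3% against 20.2% of all genes, and none higher, against 18.1%. Ptpn6, which encodes the phosphatase SHP-1, was at 48.1 ± 8.05 FPKM in IgM and 16.1 ± 1.70 in IgG1 cells (SD, n = 5), a difference of -1.51 (adjusted p = 2.88e-08). Ptprc, which encodes CD45, a receptor phosphatase that also acts on JAKs, was at 186 ± 12.2 against 114 ± 8.63 FPKM (SD, n = 5), a difference of -0.71 (adjusted p = 1.96e-07). Stat2, a transcription factor behind the type I interferon receptor, was at 13.5 ± 1.21 against 6.07 ± 1.45 FPKM (SD, n = 5), a difference of -1.05 (adjusted p = 4.06e-05).

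The cytokine genes were mostly silent: 25 of 30 lay below the minimum and 7 were at 0 in every library. Of the 5 tested, 2 were higher in IgG1 cells, 40% against 18.1% of all genes, and none lower, against 20.2%. Il16, the precursor of a chemoattractant for CD4-bearing cells, was at 85.4 ± 3.64 FPKM in IgM and 106 ± 4.73 in IgG1 cells (SD, n = 5), a difference of 0.31 (adjusted p = 6.08e-04). Il18, an inflammasome product, was at 1.86 ± 1.63 against 4.07 ± 1.16 FPKM (SD, n = 5), a difference of 1.02 (adjusted p = 0.0418) that missed the threshold in 12 alternatives. Those included removal of IgM replicate 2, 3 or 5 or of IgG1 replicate 1, 2, 3 or 5. Il15, the ligand of Il15ra and Il2rb, differed by -0.49 and did not pass (adjusted p = 0.145).

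Genes known to respond to cytokines moved both ways: of 13 tested, 6 were lower and 4 higher, 46.2% and 30.8% against 20.2% and 18.1% of all genes. The 3 with the smallest p were all lower in IgG1 cells. Irf8, a transcription factor of B and myeloid cells that interferon-gamma induces, was at 33.4 ± 3.07 FPKM in IgM and 10.3 ± 1.2 in IgG1 cells (SD, n = 5), a difference of -1.61 (adjusted p = 1.08e-08). Prdm1, which encodes the plasma cell regulator Blimp-1, was at 53.5 ± 2.71 against 29.2 ± 2.70 FPKM (SD, n = 5), a difference of -0.86 (adjusted p = 6.37e-07). Il4i1, an amino acid oxidase first found as an IL-4 response gene, was at 7.74 ± 3.15 against 0.577 ± 0.497 FPKM (SD, n = 5), a difference of -2.44 (adjusted p = 8.83e-07). The 4 higher genes, named after their values were seen, were Ccnd2, Ccnd3, Myc and Bcl2l1, which act in cell division, growth and survival. Ccnd2 was at 102 against 182 FPKM, Ccnd3 at 15.8 against 27.3, Myc at 10.5 against 18 and Bcl2l1 at 22.2 against 30.9. Mcl1 and Bcl2, which also act in survival, went the other way and were likewise named after their values were seen. Mcl1 was among the lower genes, at 147 against 96.8 FPKM (-0.61, adjusted p = 3.27e-05). Bcl2, below the minimum, was at 1.27 against 0.0570 FPKM.

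**Figure D4:**
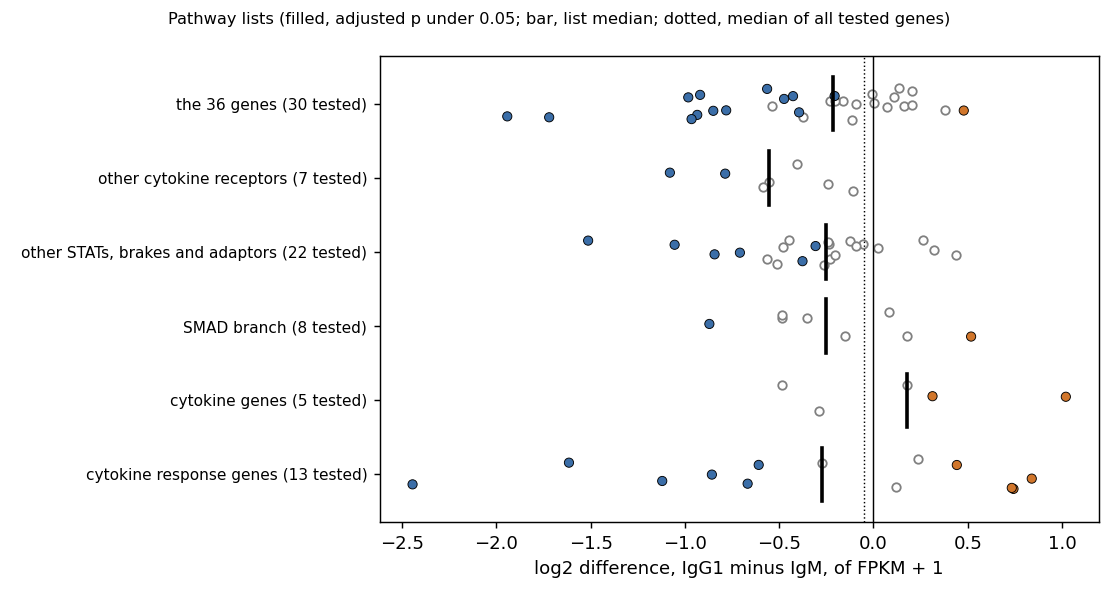
Log2 difference in FPKM + 1, IgG1 minus IgM, of each tested gene in the 36-gene list and in 5 further lists of the same pathways, with filled points for genes that passed (blue lower, orange higher), a bar for the list median and a dotted line for the median of all tested genes. The 36-gene list has 13 blue points and 1 orange point, the list of other STATs, brakes and adaptors has 6 blue points and no orange one, and the cytokine response list has both.

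Markers of other cell types that a spleen sort could hold are given as sums. Mature B cell markers, which carry many of the same receptors, summed to 119 to 144 FPKM in IgM and 80.4 to 97.1 in IgG1 libraries, without overlap, and 4 of the 5 tested were lower in IgG1 cells. Ms4a1, which encodes CD20, was the highest of them at means of 62.9 and 42.9 FPKM. This sum moved with the lower receptor genes, and its part in them was not tested. Macrophage and granulocyte markers summed to 0.660 to 3.40 FPKM in IgM and 1.78 to 4.57 in IgG1 libraries, with S100a8, S100a9, Mpo and Elane at 0 everywhere and Lyz2 highest at means of 1.09 and 1.62. Dendritic cell markers summed to 2.47 to 3.11 against 1.80 to 3.61 FPKM, with Flt3 highest at 2.29 and 2.31 and Clec9a at 0. Erythroid and megakaryocyte markers summed to 0.590 to 6.00 against 1.93 to 5.53 FPKM, led by Hbb-bs at 0.887 and 0.870.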

How the data were processed

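Per the file headers, the authors deposited FPKM per Ensembl gene in 1 file per library. Per the submitters' processing notes, HISAT2 2.1.0, Cufflinks 2.2.1, Cuffdiff and the build GRCm38 were used; their settings and annotation release were not given in the sources used here. The miRNeasy Micro kit gave total RNA, and Takara's SMART-Seq kit (mRNA HT LP) the libraries, per the labels' protocols. FPKM is a share of a library, so abundant transcripts such as immunoglobulins lower the rest, and an exact 0 can be a failed estimate.

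Groups came from the sample titles. Identifiers were matched to GENCODE M21 (47219 of 47719). Genes whose mean over the 10 libraries reached 1 FPKM were tested with limma 3.58.1 in R 4.3.3 (trend and robust, two-sided, group as the only term) on log2(FPKM + 1), a scale that understates changes of low genes. Confidence intervals are 95% and unadjusted. The fit was tested on simulated data of 9900 genes, with 50 genes changed at each fold of FPKM + 1. It recovered 42% of changes of 1.5-fold, 68% of 2-fold, 96% of 3-fold and 96% of 4-fold, with 6 false calls. Far fewer genes changed there than passed in the data, where 20.2% were lower and 18.1% higher. The adjustment was therefore stricter in the simulation, and these recovery rates do not give the power of the test on the data. A gene that did not pass can still differ by moderate folds.

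Depth was fitted from the step that 1 fragment makes in low values of single-transcript genes, of which 89.6% to 92.9% lay within 0.1 of a whole fragment; it gives precision only, and no count test was run.

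The genes and lists were chosen with earlier results of these data known. Named were all 36 genes, of each further list up to 3 tested genes with the smallest adjusted p, and of each marker list its highest gene; others are said to be named after their values were seen. Alternatives covered pseudocount, expression minimum, scaling, variance model, array weights, replicate block, length and GC trends and each library left out.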

Additional observations from a re-analysis of the deposited data

Results flagged for a closer look

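In 5 of the 71 sets of 5 libraries examined (each gene in each isotype, with sets of identical values left out), 1 library stood apart from the other 4 by Dixon's criterion, which chance meets in about 1 in 20 sets. Il2ra was at 0.0295 FPKM in IgG1 replicate 5 and at 0 in the other 4 IgG1 libraries. Il7r was at 0.266 FPKM in IgM replicate 2 and at 0 in the others. Il27ra was at 0.338 FPKM in IgG1 replicate 2 and at 0 in the other 4. Cish was at 1.79 FPKM in IgM replicate 3, where the next library had 0.771. These 4 values lie in genes below the expression minimum. For Il2ra, Il7r and Il27ra the other 4 libraries are at 0, so any value above 0 meets the criterion and the chance rate does not apply. The remaining one is Tgfbr1, at 11.3 FPKM in IgM replicate 5 where the next library had 15.6, and this library is the one that overlaps the IgG1 range.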

How the results depend on the processing

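The number of the 36 genes that were lower in IgG1 cells lay between 9 and 13 in all 21 alternatives. The number higher, 1, was 0 without the expression minimum, 2 with quantile normalization, 0 with length and GC trends removed, and 0 to 1 with a library left out. Of the further pathway genes, 4 instead of 7 were higher without the minimum. The causes were not tested, except that dropping the minimum raises the genes tested from 9900 to 24060. No gene that passed changed sign. Of the 16 that did not pass, 6 did. Il4ra was at 0.019 with median-ratio scaling, 0.21 with quantile normalization and 0.011 with array weights, and at -0.13 to 0.12 with a library left out. Il21r was at 0.0024 and Il5ra at 0.15 with quantile normalization. With length and GC trends removed, Il5ra was at 0.037, Ifngr1 at -0.065, Socs1 at -0.033 and Pim2 at -0.10. Ifngr1 was at -0.020 with a common total, and with a library left out it ran from -0.0503 to 0.048 and Il5ra from -0.30 to 0.067. Replicate numbers are shared by the groups, but deviations of same-numbered libraries correlated at only -0.0357 to 0.0966, and 3 of 5 IgM libraries correlated best with their own number. With a replicate block 12 genes were lower and 1 higher, Ifnar2 being the one lost (adjusted p = 0.0683). Depth limits mainly the 6 genes that lay under the expression minimum.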
